A study of Mus musculus with 12 samples.

Results

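To describe how fibroblast growth factor (FGF) signalling is laid out in striatal glia, 9 genes were followed among the 31053 genes of a single-cell count table. They were the receptors Fgfr1, Fgfr2 and Fgfr3, the FGF carrier Fgfbp3, the feedback inhibitors Spry1, Spry2 and Spry4, and the transcription factors Etv4 and Etv5. These genes were chosen by their levels in the libraries of each age and in cell classes gated on marker genes, so those levels are given as a description and without a test. Cells came from the striatum of wild-type mice, whose strain is mixed by the labels but C57BL/6Jax by the methods of the study, and were enriched for astrocytes with magnetic beads against the surface antigen ACSA2. Each age, postnatal or 3 months (3m), had 2 libraries, and each preparation pooled several animals. The labels conflict on the postnatal ages: replicate 1 has day 7 in its title and day 3 in its age tag, and replicate 2 has the reverse. Both were therefore treated as 1 postnatal group. The study's methods name day 3 but not day 7 for postnatal brain tissue, so whether the replicates differed in age is not known here.

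FGFs are secreted ligands that bind heparan sulphate at the cell surface and bring together receptor tyrosine kinases of the FGFR family. The activated receptor signals through the adaptor FRS2 to RAS, RAF, MEK and ERK. ERK switches on its own brakes, among them Sprouty proteins and the phosphatase DUSP6, as well as the ETS factors ETV4 and ETV5, whose transcripts are widely used as a readout of the pathway. FGFR3 is known as a receptor of astrocytes and their progenitors, and FGFR2 as a receptor of oligodendrocytes, where FGF signalling regulates myelin growth.

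The libraries held 651 to 1449 barcodes, of which 555 to 1120 passed filters of at least 500 detected genes and at most 10% mitochondrial counts. Levels are counts per 1000000 unique molecular identifiers (CPM of UMIs) in the summed cells of a class, with 95% exact Poisson intervals in parentheses that cover counting error only. Each molecule is tagged near its end and counted once irrespective of its length, so levels of different genes compare numbers of molecules. Astroglia-like cells numbered 395 and 556 in the postnatal libraries and 305 and 306 in the 3m libraries (replicate 1 before 2, the order used throughout), and oligodendrocyte-like cells numbered 4, 0, 555 and 295. The samples are labelled as astrocytes, yet 3m replicate 1 held more oligodendrocyte-like than astroglia-like cells. Postnatal astroglia-like cells lay mostly in clusters led by Fabp7 or Hmgb2 and 3m ones in clusters led by Clu or Aldoc, and the 10 oligodendrocyte markers summed to 24.1, 22.2, 326 and 339 CPM in the class. Postnatal replicate 2 and 3m replicate 2 shared 95 cell barcodes, and other pairs shared at most 2. Without the smaller member of each shared barcode, the 3m to postnatal log2 fold change was 1.58 for Fgfr3 and -2.86 for Fgfbp3, against 1.57 and -2.86 with them.

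Among the receptors, Fgfr3 (chr5:33721674-33737068, plus strand, GRCm38) was the most abundant in 3m astroglia-like cells. It stood at 173 CPM (161 to 187), 88.5 CPM (82.3 to 95.01), 315 CPM (292 to 339) and 327 CPM (305 to 349) in the 4 libraries. Both 3m libraries lay above both postnatal libraries, and the postnatal libraries themselves differed from each other by more than their counting error. The mean was 131 ± 60.1 CPM postnatally and 321 ± 8.27 CPM at 3m (SD, n = 2), a ratio of 2.45. The fitted log2 fold change was 1.57 with both postnatal libraries, 2.15 without postnatal replicate 1 and 1.13 without postnatal replicate 2. After each cell was thinned to 2000 UMIs, 26.9%, 14.7%, 40.0% and 50% of astroglia-like cells held a Fgfr3 molecule (53.7%, 41.9%, 72.5% and 75.2% without thinning). In oligodendrocyte-like cells the thinned shares were 0.548% and 0.690% at 3m.

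Fgfr1 (chr8:25513654-25575718, plus strand), the receptor found in most brain cell types, varied less. Astroglia-like cells held 71.0 CPM (63.1 to 79.5), 88.6 CPM (82.4 to 95.1), 93.4 CPM (81.0 to 107) and 99.1 CPM (87.5 to 112). The 3m values were the higher pair, but their intervals overlapped that of postnatal replicate 2. Fgfr1 was also present at low counts outside the neural classes, with 298 CPM (119.8 to 614) and 331 CPM (181 to 555) in the 7 and 8 fibroblast-like cells of the 3m libraries.

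Fgfr2 (chr7:130162451-133123350, minus strand) overlapped between the ages in astroglia-like cells, at 52.9 CPM (46.2 to 60.4), 72.9 CPM (67.3 to 78.8), 65.5 CPM (55.2 to 77.1) and 61.4 CPM (52.3 to 71.6). The annotated span covers 2960900 bases, although the RefSeq promoter window of Fgfr2 lies inside it, at chr7:130266809-130267058. The annotation places a Ctbp2 exon over a Fgfr2 exon on the same strand, so reads there cannot be assigned to either gene with certainty. How many Fgfr2 counts fall in that overlap was not examined. In oligodendrocyte-like cells Fgfr2 stood well above the other receptors, with 276 CPM (263 to 291) in 3m replicate 1 and 269.8 CPM (254 to 286) in 3m replicate 2. Thinned cells with a Fgfr2 molecule made up 42.6% and 40.7% of that class, against 13.8% and 11.9% of 3m astroglia-like cells.

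The mix of the 3 receptors differed between the classes and, within astroglia-like cells, between libraries. Fgfr3 made up 58.3% (Clopper-Pearson 95% interval 55.5 to 61.1), 35.4% (33.4 to 37.5), 66.5% (63.5 to 69.3) and 67.1% (64.4 to 69.6) of receptor UMIs in astroglia-like cells. The 3m libraries were alike, whereas postnatal replicate 2 split its receptor molecules into 35.4% Fgfr1, 29.2% Fgfr2 and 35.4% Fgfr3. Summed over the receptors, astroglia-like cells held 297, 249.97, 474 and 487 CPM. Oligodendrocyte-like cells held 285 and 280.5 CPM, of which Fgfr2 made up 96.8% and 96.2%. Precursor-like cells, the progenitors of oligodendrocytes, gave only 26 receptor UMIs in postnatal replicate 1 and 17 in 3m replicate 1, of which 16 and 12 were Fgfr1. No receptor molecule was seen in 58.1%, 56.9%, 41.1% and 39.2% of thinned astroglia-like cells, and molecules of 2 receptors were seen in 6.73%, 5.80%, 11.6% and 15.8%.

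**Figure D1:**
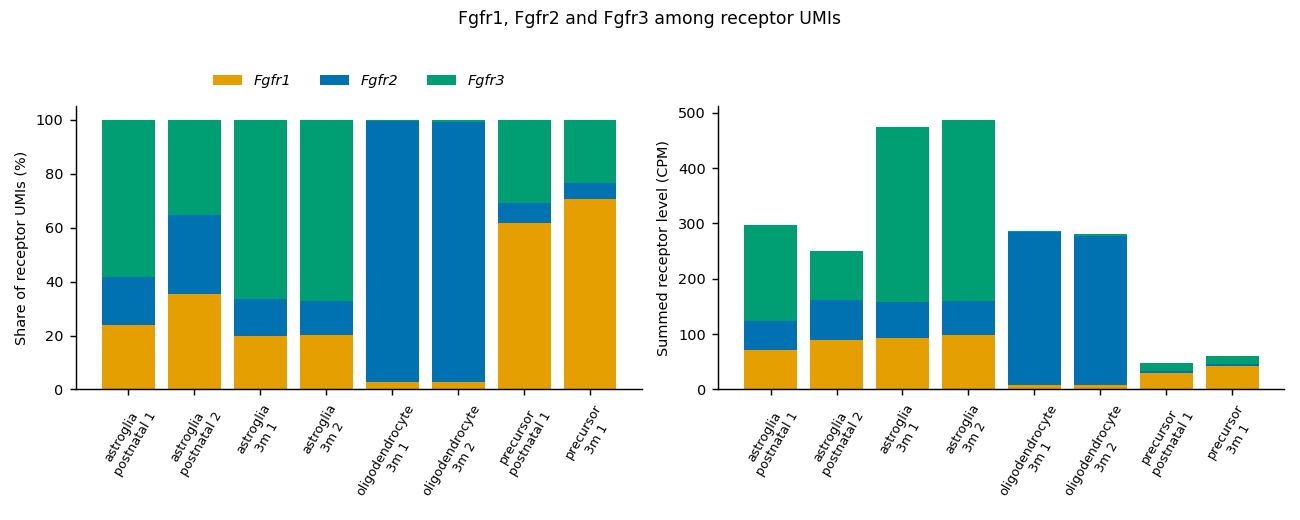
Fgfr1, Fgfr2 and Fgfr3 as a share of receptor UMIs in percent (left) and as stacked CPM (right), 1 bar per library for astroglia-like, oligodendrocyte-like and precursor-like cells. Oligodendrocyte-like bars are nearly all Fgfr2 (96.8% and 96.2%), 3m astroglia-like bars are mostly Fgfr3 (66.5% and 67.1%), and the precursor-like bars rest on 26 and 17 UMIs.

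Fgfbp3 (chr19:36917550-36919615, minus strand), a secreted protein that binds FGFs and releases them from heparan sulphate, stood high in the young cells. Astroglia-like cells held 349 CPM (331 to 367), 425 CPM (412 to 439), 44.0 CPM (35.6 to 53.7) and 43.5 CPM (35.9 to 52.2). The ages did not overlap, and the postnatal mean of 387 ± 54.1 CPM was 8.85 times the 3m mean of 43.7 ± 0.351 CPM (SD, n = 2). A molecule was seen in 39.8%, 48.5%, 10.5% and 7.31% of thinned cells. At 3m, oligodendrocyte-like cells held 20.9 and 16.02 CPM, and mural-like cells, which wrap small vessels, held 21.1 to 25.02 CPM over the 4 libraries.

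**Figure D2:**
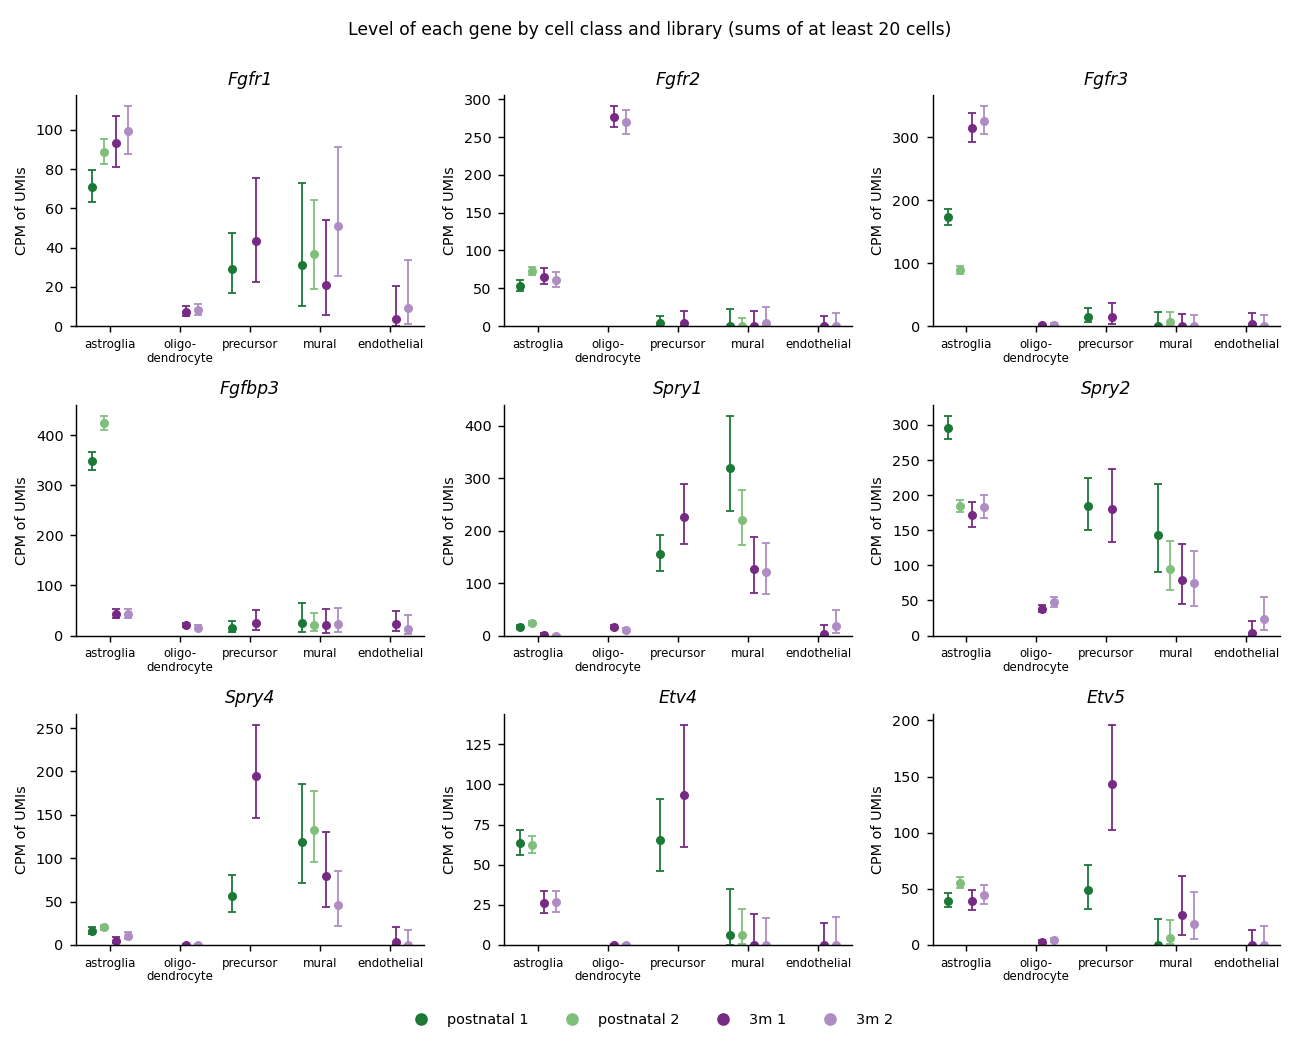
CPM of UMIs of each of the 9 genes in astroglia-like, oligodendrocyte-like, precursor-like, mural-like and endothelial-like cells, 1 point per library with at least 20 cells of the class, and bars for 95% Poisson intervals. Astroglia-like Fgfr3 is higher at 3m (315 and 327 against 173 and 88.5 CPM), astroglia-like Fgfbp3 is higher postnatally (349 and 425 against 44.0 and 43.5 CPM), and Spry1 is highest in mural-like and precursor-like cells.

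Spry2 (chr14:105891947-105896819, minus strand) was the leading Sprouty gene of astroglia-like cells, with 296 CPM (279.8 to 313), 184 CPM (175 to 194), 172 CPM (155 to 190.5) and 183 CPM (167 to 200.2). Postnatal replicate 1 stood above the other 3 libraries, which overlapped. Precursor-like cells held 184 CPM in postnatal replicate 1 and 179.8 CPM in 3m replicate 1, and oligodendrocyte-like cells held 37.9 and 47.6 CPM. The promoters of Fgfbp3 and Spry2 are shown because they were the only ones, among the 6 members with a RefSeq window, to hold an octamer of the repressor CIC, which ERK signalling is known to relieve. The octamers searched on both strands were TGAATGAA, TGAATGGA, TCAATGAA and TCAATGGA. Any of the 4 was found in 3.19% of 32851 promoter windows, TGAATGAA in 1.08% and TCAATGAA in 0.642%, and the ETS motif CCGGAAGT, held by 2.88%, was in no member's window. The sequences lie before the gene on its own strand (RefSeq, GRCm38.p6), with the octamer in capitals, in both cases as its reverse complement. The Fgfbp3 window holds an annotated Fgfbp3 exon, and 234 bases are shown against 250 for Spry2. The Fgfbp3 octamer is placed at -60 from the RefSeq start, so the sequence shown stops short of that start.
Fgfbp3, chr19:36919616-36919849, minus strand: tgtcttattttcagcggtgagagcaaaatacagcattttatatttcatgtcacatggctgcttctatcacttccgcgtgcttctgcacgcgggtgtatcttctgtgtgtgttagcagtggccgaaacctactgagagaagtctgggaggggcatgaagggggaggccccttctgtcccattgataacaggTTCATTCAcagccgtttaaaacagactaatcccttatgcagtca
Spry2, chr14:105896820-105897069, minus strand: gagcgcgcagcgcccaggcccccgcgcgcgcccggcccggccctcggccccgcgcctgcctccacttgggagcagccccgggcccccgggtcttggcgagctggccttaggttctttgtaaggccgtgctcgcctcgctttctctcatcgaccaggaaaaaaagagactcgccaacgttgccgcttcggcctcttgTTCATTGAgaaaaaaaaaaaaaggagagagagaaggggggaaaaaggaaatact
A match is a description of the letters and says nothing about binding in these cells.

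Spry1 (chr3:37639947-37644598, plus strand), a second Sprouty gene, was low in astroglia-like cells, with 15.9 CPM (12.3 to 20.2) and 23.9 CPM (20.7 to 27.4) postnatally. At 3m it had 1.37 CPM on 3 UMIs in replicate 1 and 0 UMIs in replicate 2, where 3 UMIs would be 1.14 CPM. Mural-like cells held more in every library, at 319 CPM (238 to 419), 221 CPM (173 to 278), 127 CPM (81.1 to 188) and 121 CPM (78.7 to 177). Precursor-like cells held 155 CPM (124 to 192), below the mural-like level, in postnatal replicate 1 and 227 CPM (174 to 289.8), above it, in 3m replicate 1. Oligodendrocyte-like cells kept 16.3 and 9.98 CPM, above the 3m astroglia-like level.

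Spry4 (chr18:38586247-38601415, minus strand) was likewise higher in mural-like and precursor-like than in astroglia-like cells of the same libraries. Astroglia-like cells held 16.1 CPM (12.5 to 20.5), 20.1 CPM (17.3 to 23.4), 5.04 CPM (2.51 to 9.01) and 10.7 CPM (7.09 to 15.4), with the 3m values below both postnatal ones. Mural-like cells held 119, 132, 79.1 and 46.3 CPM, and precursor-like cells 56.5 CPM (38.4 to 80.2) in postnatal replicate 1 and 194 CPM (146 to 253) in 3m replicate 1. No Spry4 molecule was counted in oligodendrocyte-like cells of either 3m library, which allows up to 0.544 and 0.697 CPM.

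Etv4 (chr11:101769742-101785371, minus strand) and Etv5 (chr16:22381309-22439719, minus strand) encode the ETS factors read as pathway output, and they did not follow each other with age. Etv4 in astroglia-like cells was at 63.3 CPM (55.8 to 71.4), 62.2 CPM (57.0 to 67.7), 26.1 CPM (19.8 to 33.8) and 26.7 CPM (20.8 to 33.7). The ages did not overlap, and the postnatal mean of 62.7 ± 0.769 CPM was 2.38 times the 3m mean of 26.4 ± 0.415 CPM. Etv5 was at 39.4 CPM (33.6 to 46.0), 55.4 CPM (50.6 to 60.6), 39.4 CPM (31.5 to 48.6) and 44.6 CPM (36.9 to 53.5), with overlapping ages and a mean of 47.4 ± 11.3 CPM against 42.0 ± 3.70 CPM (SD, n = 2).

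Both ETS factors were also carried by precursor-like cells. In precursor-like cells of postnatal replicate 1 and 3m replicate 1, Etv4 was at 65.6 CPM (46.0 to 90.9) and 93.5 CPM (61.1 to 137), and Etv5 at 49.2 CPM (32.4 to 71.6) and 144 CPM (103 to 196). Oligodendrocyte-like cells gave 0 Etv4 molecules and 2.90 and 4.18 CPM of Etv5. Endothelial-like cells of the 3m libraries gave 0 molecules of both, and mural-like cells of the 3m libraries gave 0 of Etv4 and 5 and 4 UMIs of Etv5.

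On the scale of the edgeR fit over all genes, which is given here as a description, Etv4 had a log2 fold change of -0.96 (SE 0.16) and Spry4 of -0.90 (SE 0.36) at 3m. Fgfr1 was at 0.55 (SE 0.16), Fgfr2 at 0.29 (SE 0.18), Spry2 at -0.16 (SE 0.25) and Etv5 at 0.10 (SE 0.20). Without TMM scaling the median of all genes moved to -0.29 (log2), and Etv5 turned to -0.18. Immediate early genes, which dissociation is known to induce, summed to 5389, 4135, 455 and 192 CPM in astroglia-like cells. In the same sums 10 cycling genes reached 464, 1292, 29.8 and 251 CPM, and 12 astroglia markers 12142, 8234, 25350 and 25641 CPM. The part of these in the age differences of the members was not tested. In these sums, fewer cells with a transcript and less of it per cell cannot be told apart from CPM alone.

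Between the classes at 3m the members split by receptor. Fgfr3 was 193 and 128 times higher in astroglia-like than in oligodendrocyte-like cells of 3m replicates 1 and 2, and Fgfr1 12.6 and 12.2 times higher. Fgfr2 was 4.22 and 4.39 times higher in oligodendrocyte-like cells. Of the readout genes, Etv4 was 48.0-fold and 38.3-fold higher in astroglia-like cells with the oligodendrocyte-like count of 0 set at 3 per library. On the same basis Spry4 was 9.26-fold and 15.3-fold higher, and these ratios leave out counting error in astroglia-like cells. Etv5 was 13.6 and 10.7 times, Spry2 4.54 and 3.85 times, and Fgfbp3 2.11 and 2.71 times higher in astroglia-like cells. Spry1 was 8.73-fold higher in oligodendrocyte-like cells of 3m replicate 2, with the astroglia-like count of 0 set at 3.

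RNA from other cells reaches droplets, so the members were set beside the marker lists. The 12 astroglia markers summed to 1.78% and 1.90% of their astroglia-like level in oligodendrocyte-like cells of 3m replicates 1 and 2. Fgfr3 stood at 0.518% and 0.781%, below that list. Fgfr1 stood at 7.96% and 8.20%, Etv5 at 7.37% and 9.37%, Spry2 at 22.0% and 26.0%, and Fgfbp3 at 47.4% and 36.9%, above it. In the other direction the 10 oligodendrocyte markers reached 0.701% and 0.645% of their own class in astroglia-like cells, and Fgfr2 reached 23.7% and 22.8%. Spry1 reached 8.42% in 3m replicate 1, on 3 UMIs.

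A list of 91 further genes of the pathway was tested on the same contrasts. With age, 62 passed the filter on low counts, of which 6 rose and 14 fell at 3m (edgeR, adjusted p at most 0.05 and at least a 2-fold change), beside 14.5% and 11.8% of all 11797 genes tested, and the median log2 fold change was -0.18 against -0.00 over all genes. Among 13 tested genes of heparan sulphate proteoglycans, their enzymes and carriers, 3 rose and 4 fell. The glypican Gpc5 went from 79.4 and 38.7 CPM to 350.4 and 398 CPM (log2 fold change 2.95, SE 0.35, adjusted p = 0.0017). The syndecan Sdc2 went from 56.3 and 61.0 to 179 and 186 CPM (1.92, SE 0.15, adjusted p = 0.000624), and Sdc4 from 203 and 65.7 to 378 and 381 CPM (1.78, SE 0.48, adjusted p = 0.026). Sulf2, which trims heparan sulphate, was at 4.09 and 13.4 CPM postnatally and had 1 and 0 UMIs at 3m, and Sdc1 went from 3.13 and 5.01 to 0.916 and 0.763 CPM (4 UMIs in all at 3m).

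Of 2 ligands tested 1 rose. The ligand Fgf1 rose from 23.8 and 11.5 CPM to 49.0 and 42.7 CPM (1.70, SE 0.36, adjusted p = 0.0108), while the intracellular homologue Fgf13 fell from 52.9 and 89.0 to 13.3 and 15.3 CPM (-2.03, SE 0.28, adjusted p = 0.00288). Of 19 adaptors and kinases 3 fell and none rose, with the phosphatase gene Ptpn11 among those that fell. The membrane protein gene Flrt1 rose from 37.8 and 22.0 to 82.0 and 83.1 CPM (1.77, SE 0.27, adjusted p = 0.00386). The feedback inhibitor Il17rd fell from 16.8 and 20.1 to 5.04 and 5.72 CPM (-1.49, SE 0.29, adjusted p = 0.00807), and the phosphatase gene Dusp5 was at 4.33 and 3.14 CPM postnatally and had 2 UMIs in all at 3m. The ETS factor Elk3 fell from 47.6 and 45.9 to 7.79 and 5.34 CPM (-2.56, SE 0.25, adjusted p = 0.00107). The number that fell dropped to 7 without 3m replicate 1 and to 6 without 3m replicate 2, where the genes lower over the whole table also dropped, from 1395 of 11797 to 824 of 12600 and 704 of 12569, and the number that rose became 10 without postnatal replicate 2. Without cells holding oligodendrocyte marker UMIs more rose than fell, 9 against 7, beside 1073 higher and 854 lower of 10262 genes.

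**Figure D3:**
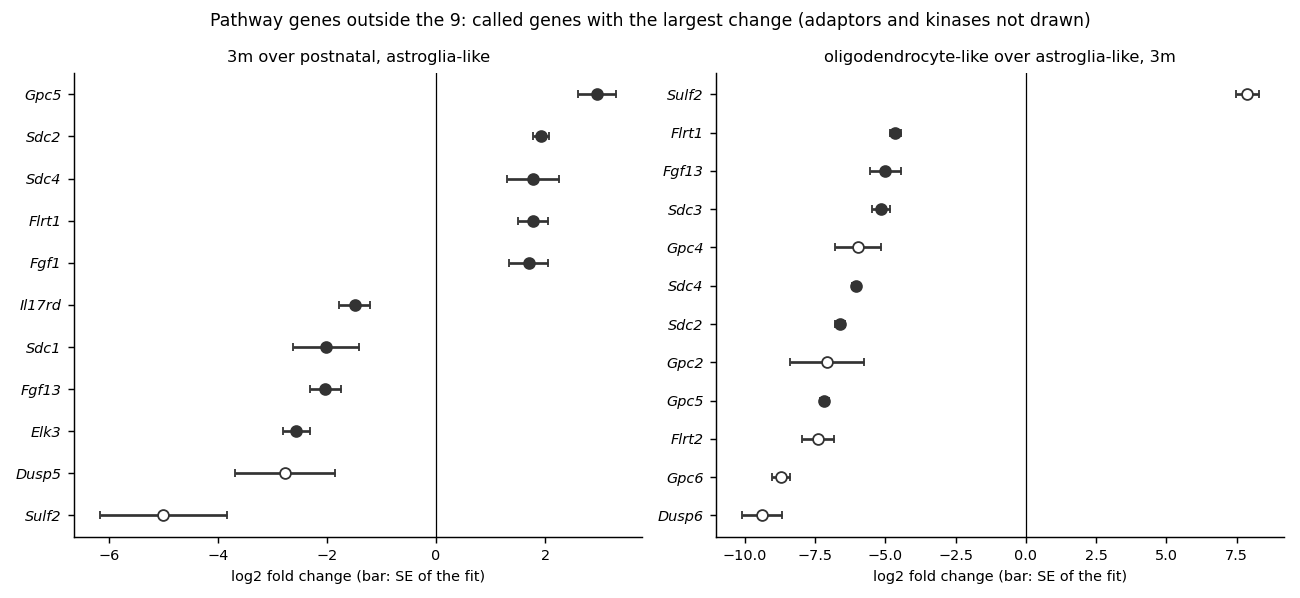
Log2 fold change with its SE for the named pathway genes of each comparison, adaptors and kinases not drawn, 3m against postnatal astroglia-like cells (left) and oligodendrocyte-like against astroglia-like cells at 3m (right). Open circles are genes with at most 3 UMIs in a group, whose value depends on the prior count. With age the points lie on both sides of 0, and between the classes every named gene but Sulf2 is lower in oligodendrocyte-like cells.

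Between the classes at 3m, 60 pathway genes were tested, of which 18 were higher and 21 lower in oligodendrocyte-like cells, beside 18.0% and 26.0% of all 11584 genes tested, with a median log2 difference of 0.15 against -0.02 over all genes. Of 12 proteoglycan and enzyme genes tested, 8 were lower and 3 higher. Gpc5 was at 350.4 and 398 CPM in astroglia-like and 2.18 and 3.02 CPM in oligodendrocyte-like cells (log2 fold change -7.17, SE 0.15, adjusted p = 1.09e-26). Sdc2 was at 179 and 186 against 1.63 and 2.09 CPM (-6.61, SE 0.18, adjusted p = 4.9e-24), Sdc4 at 378 and 381 against 4.53 and 7.20 CPM (-6.04, SE 0.14, adjusted p = 6.99e-26) and Sdc3 at 36.2 and 38.1 against 1.27 and 0.697 CPM (-5.15, SE 0.32, adjusted p = 8.37e-15). Gpc6 had 480 UMIs in astroglia-like and 2 in oligodendrocyte-like cells, Gpc4 43 and 1, and Gpc2 23 and 0. Sulf2 was the reverse, with 1 UMI in astroglia-like cells and 60.2 and 54.1 CPM in oligodendrocyte-like cells.

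Of 19 adaptors and kinases 7 were higher in oligodendrocyte-like cells and none lower, among them Grb2, Gab1 and Sos1, which link receptors to RAS. Of 3 ligands tested 2 were higher and 1 lower, and of 10 ETS factors and other ERK target or repressor genes 4 were higher and 3 lower. Outside the rule for named genes and chosen after their values were seen, the ETS factor Etv1 was at 37.1 and 38.9 CPM in astroglia-like against 549 and 538 CPM in oligodendrocyte-like cells (3.83, SE 0.10, adjusted p = 1e-23), and the cyclin Ccnd1 at 299 and 323 against 2797.2 and 2799.7 CPM (3.17, SE 0.08, adjusted p = 3.94e-24), opposite in direction to Etv4 and Etv5. Of 12 other feedback inhibitors 2 were higher and 6 lower, and of these the EGF receptor inhibitor Errfi1 was at 5.04 and 6.86 against 58.2 and 59.2 CPM (3.28, SE 0.21, adjusted p = 1.07e-14). The ERK phosphatase gene Dusp6 had 22.4 and 23.6 CPM in astroglia-like and 0 in oligodendrocyte-like cells, ratios of 41.3 and 33.9 with the count of 0 set at 3. Flrt1 was at 82.0 and 83.1 against 3.26 and 3.25 CPM (-4.65, SE 0.19, adjusted p = 3.84e-19), Flrt2 had 111 UMIs against 1, and Fgf13 was at 13.3 and 15.3 against 0.181 and 0.697 CPM (-5.00, SE 0.55, adjusted p = 2.65e-09). Both classes came from the same 2 preparations, and with library as a block the p-values rest mostly on the dispersion that edgeR shares over all genes (biological coefficient of variation 0.0507).

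Dividing and other astroglia-like cells were compared within each postnatal library, a contrast that the rule for the members does not name, although the members were chosen with earlier results of these cells known. In the postnatal libraries 31 and 73 astroglia-like cells carried at least 3 UMIs of 10 cycling genes, and 364 and 483 did not. With library as a block, 4 of 9 members passed the thresholds, 2 higher and 2 lower, beside 15.8% of all 11349 genes tested. Spry1 rose in cycling cells, from 13.5 to 29.5 CPM in postnatal replicate 1 and from 12.6 to 50.7 CPM in postnatal replicate 2 (edgeR, log2 fold change 1.75, SE 0.31, adjusted p = 0.000631). Spry4 rose from 14.1 to 27.8 and from 15.9 to 30.2 CPM (1.01, SE 0.29, adjusted p = 0.0174). The carrier Fgfbp3 fell from 379 to 174 and from 552 to 124 CPM (-1.63, SE 0.21, adjusted p = 4.62e-05). Fgfr2 fell from 55.0 to 40.9 and from 91.2 to 29.4 CPM (-1.11, SE 0.26, adjusted p = 0.00499).

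The other 5 members did not pass. Fgfr1 was at 77.5 and 97.5 CPM in non-cycling and 32.8 and 67.5 CPM in cycling cells, short of the fold threshold (-0.70, SE 0.22, adjusted p = 0.0303). Fgfr3 was lower (-0.50, SE 0.20, adjusted p = 0.0814) and Etv5 higher (0.52, SE 0.21, adjusted p = 0.0834) in cycling cells of both libraries without passing. Spry2 (-0.03, SE 0.18) lay near 0, and Etv4 (-0.00, SE 0.28) went from 67.9 to 36.0 CPM in postnatal replicate 1 but from 56.6 to 75.4 CPM in postnatal replicate 2. Cycling cells were deeper, with median UMIs of 15884 against 8952.5 and 31499 against 11489, and their astroglia markers summed to 6375 against 13134 and 3364 against 10287 CPM. The part of these differences in the result was not tested. Fgfr2 and Spry4 were not called by DESeq2 (adjusted p = 0.13 and 0.338) or by edgeR without the replicate block (adjusted p = 0.0689 and 0.0612), and with 1 cycling UMI as the limit Spry1 alone was called. Spry4 lay at the fold threshold and was also lost without TMM scaling (0.95), without the filter on low counts (0.97), with cluster-based classes (0.79) and with at least 1000 genes per cell (0.99).

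**Figure D4:**
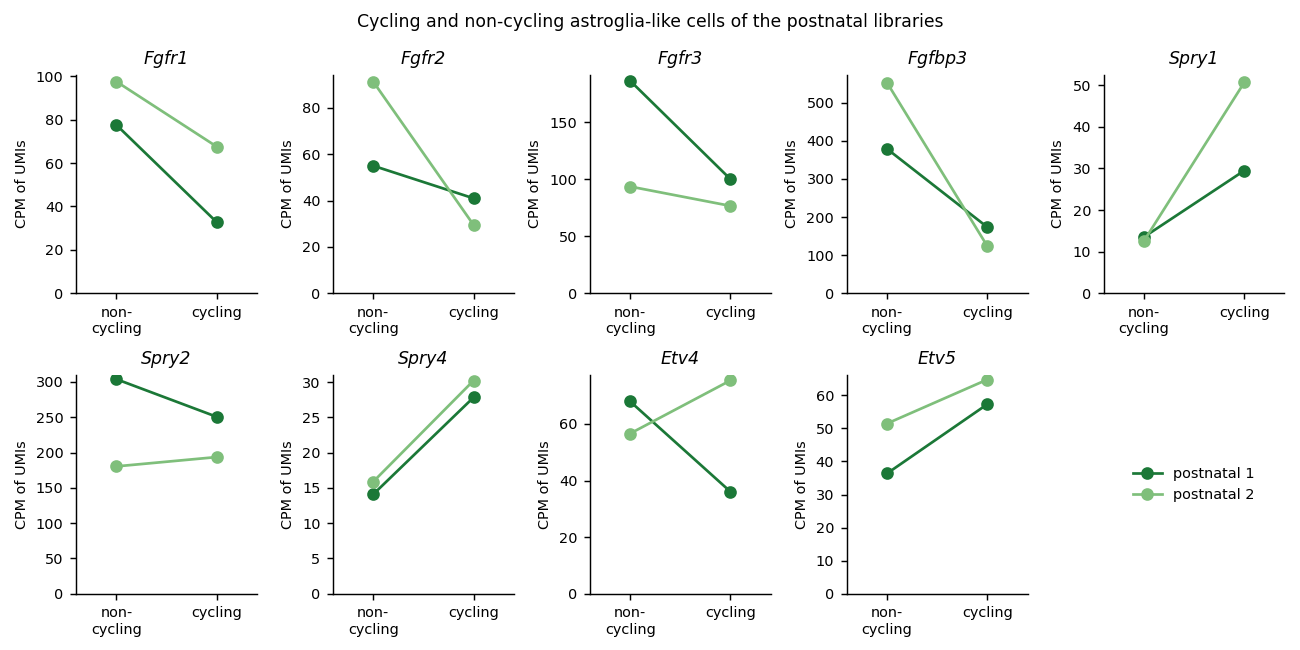
CPM of each of the 9 genes in non-cycling and cycling astroglia-like cells, 1 line per postnatal library. Lines for Spry1 and Spry4 climb and those for Fgfbp3 and Fgfr2 descend in both libraries, while Etv4 lines cross.

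Of the pathway list, 63 genes were tested in cycling cells, and 4 rose and 6 fell, a share close to the 15.8% of all genes called. No pathway gene was called without the replicate block, 0 rose and 2 fell with DESeq2, and 1 rose and 1 fell with 1 cycling UMI as the limit. Those that rose were Sdc1, Hs6st2, Flrt3 and Myc. Those that fell were Fgf1, Fgf11, Fgf13, Gpc5, Il17rd and Flrt1, for example Gpc5 from 84.9 to 47.5 and from 49.5 to 13.0 CPM (-1.36, SE 0.26, adjusted p = 0.00129).

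A further contrast set astroglia-like cells above and below their library's median level of 10 immediate early genes, which respond both to ERK and to tissue dissociation. None of the 8 members tested passed (edgeR, library as a block), beside 0.475% of 9896 genes. Of those 47 genes, 8 were on the immediate early list that split the cells, so their calls were set by the split. An unadjusted p under 0.05 was found for 5 of the 8 members and for 1339 of all genes (0 of the 8 without the replicate block), and DESeq2 called 0 of the 3 it gave an adjusted p. Etv4 was at 43.8 against 72.8, 36.3 against 81.2, 28.7 against 24.4 and 22.0 against 29.8 CPM in low and high cells of the 4 libraries (log2 fold change 0.76, SE 0.18, adjusted p = 0.066). Spry2 was higher in high cells of all 4 libraries, at 216 against 335, 141 against 216, 151 against 187 and 175 against 188 CPM (0.43, SE 0.11, adjusted p = 0.0836). Fgfr2 was lower in all 4 (-0.48, SE 0.12, adjusted p = 0.0836), and Etv5 higher in all 4 (0.31, SE 0.12, adjusted p = 0.277).

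Spry4 was at 0.90 (SE 0.27, adjusted p = 0.139), Fgfr1 at -0.13, Fgfr3 at 0.12 and Fgfbp3 at 0.01 on the log2 scale. Spry1 failed the filter on low counts, with 6.57 against 20.4 and 11.8 against 32.7 CPM in the postnatal libraries and 3 UMIs in all at 3m, and it was called without 3m replicate 1 (adjusted p = 0.0139) or without 3m replicate 2 (adjusted p = 0.0266). High cells were deeper in every library, with median UMIs of 12333 against 4239, 13594 against 11510, 7716 against 4838 and 9471 against 5778, and the part of depth was not tested. None of the 54 pathway genes tested passed, and without the filter on low counts 2 of 81 did (Dusp5 and Flrt3). Whether the contrast differed with age was tested afterwards as an interaction, which called 1.27% of 9896 genes and none of the 8 members. Etv4 came nearest by its unadjusted p of 0.00428 (-0.96, SE 0.32, adjusted p = 0.131).

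**Figure D5:**
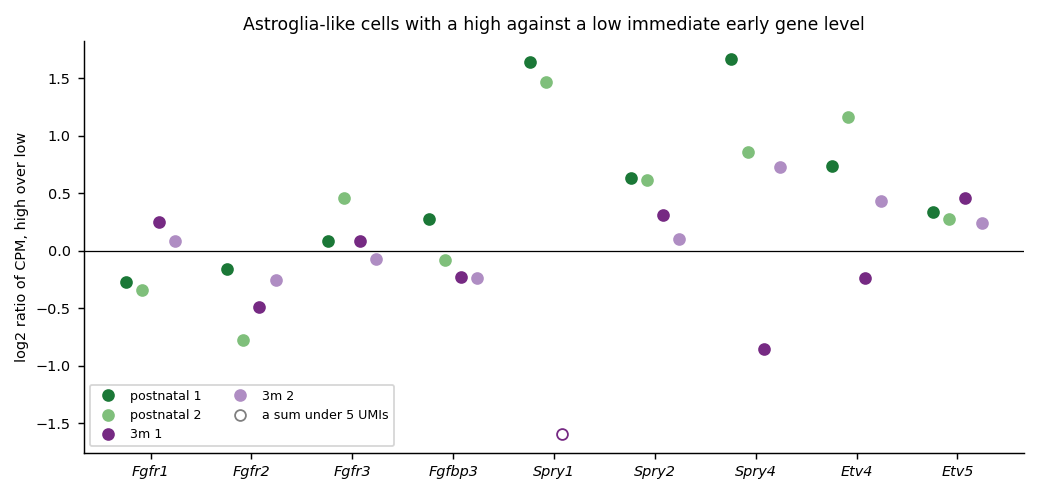
Log2 ratio of CPM in astroglia-like cells with high over low immediate early gene level, 1 point per library and gene. Open points rest on a sum of under 5 UMIs. Spry2 and Etv5 lie above 0 in all 4 libraries and Fgfr2 below 0 in all 4.

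The genes most like each member were taken over 15 sums of 1 library and class, by Pearson correlation of log2(CPM + 1). These sums share libraries and 4 of them are astroglia-like, so the values are a description. Fgfr3 was most like Mapk4 (r = 0.981), Nkain4 (0.975) and Mt3 (0.963), and Fgfr2 most like Ccdc13 (0.972), Tmem229a (0.959) and 1190005I06Rik (0.953). Akt2 (0.928) and Pla2g7 (0.895) were among the 3 nearest to Fgfr1. Fgfbp3 was nearest to Arl3 (0.918), Nfia (0.904) and Fars2 (0.890).

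Among the readout genes, Etv4 was most like Arxes1 (0.985), Sox21 (0.981) and Gas1 (0.967), and Etv5 most like Sox6 (0.922), Oxct1 (0.911) and Cbarp (0.908). Spry1 was nearest to Scand1 (0.956), Armcx3 (0.909) and Npm3 (0.898), Spry2 to Dlg4 (0.943), Cpt1c (0.938) and Nrxn2 (0.937), and Spry4 to Meg3 (0.951), Adcy3 (0.947) and 4833422C13Rik (0.932). No member was among the nearest 3 of another. Between members r ran from -0.56 for Fgfr3 and Spry1 and -0.55 for Fgfr2 and Spry1 to 0.78 for Spry2 and Etv4 and 0.79 for Fgfr3 and Etv4.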

How the data were processed

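Single cells of the striatum were profiled with a droplet kit that tags the 3-prime end of transcripts. The authors deposited 1 table of raw UMI counts per gene and cell. The submitters' processing notes name Cell Ranger, Seurat 3.1.1 and the mm10 genome, and runs of a library were merged. The members and all gene lists were chosen with earlier results of these data known.

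Cells with at least 500 genes and at most 10% mitochondrial counts were kept. A cell took the class with the highest share of its markers detected, if at least 3 were seen and the share led the next class by at least 0.2. No doublet caller was run, and that margin leaves cells with markers of several classes unassigned. Counts were summed per library and class and tested with edgeR 4.0.16 (quasi-likelihood, TMM, filterByExpr, R 4.3.3), with Benjamini-Hochberg adjustment over all genes. A call needed both an adjusted p no higher than 0.05 and a log2 change of 1 or more in size. Library was a block in all contrasts within libraries. DESeq2 1.42.0, other filters, scalings and cell gates, and leaving out each library were alternatives. The interaction with age was added after the data were seen. An exact permutation test of 2 libraries against 2 cannot go under p = 0.333. Replicates are separate pooled preparations, and p-values of the age contrast measure the spread between them. With library as a block, p-values measure the spread of the difference within libraries. Script steps were tested on simulated counts.

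Named genes were all members, the called pathway genes with the largest fold changes (at most 12 per comparison), and the 3 genes most correlated with each member among 9928 genes with a mean of at least 10 CPM. Ptpn11 with age, and Grb2, Gab1, Sos1, Etv1, Ccnd1 and Errfi1 between the classes, were named outside this rule. In the cycling contrast 10 pathway genes were called. Thinning left 327, 517, 275 and 260 astroglia-like cells of at least 2000 UMIs. Some genes that this rule gives are not reported here. Gene positions are from the GENCODE annotation of GRCm38.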

Additional observations from a re-analysis of the deposited data

Results flagged for a closer look

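Fgfr1 had log2 ratios of high over low immediate early gene level below 0 in both postnatal libraries (-0.28 and -0.34) and above 0 in both 3m libraries (0.25 and 0.08). The interaction of this contrast with age was 0.39 on the log2 scale (SE 0.21) and did not pass edgeR's test (adjusted p = 0.493).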

How the results depend on the processing

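Pathway genes that rose with age numbered 6, and 10 by adjusted p alone and 9 without cells holding oligodendrocyte marker UMIs, with 5 to 10 when 1 library was left out (10 without postnatal replicate 2). Those that fell numbered 14, and 7 without cells holding oligodendrocyte marker UMIs, with 6 to 14 when 1 library was left out. With age, a replicate block gave 8 that rose and 14 that fell. The labels state no link between replicates of the same number, although replicate 1 had 4 runs and replicate 2 had 2 runs at both ages. The deviations of replicate 1 from its age mean correlated at 0.148 between the ages over 11797 genes. Between the classes no alternative moved the 18 and 21 calls by over 1.5 times. DESeq2 gave 13 higher and 16 lower of 62 tested, and without the replicate block the calls were 18 and 21. Members called in cycling cells numbered 4, and 2 with DESeq2, 2 with no replicate block and 1 with at least 1 cycling UMI as the limit. They numbered 3 without TMM scaling, without the filter on low counts, with cluster-based classes and with at least 1000 genes per cell. For immediate early genes 0 members were called, 1 without the filter on low counts, 0 to 1 when 1 library was left out and 0 with no replicate block. For the class and cycling contrasts, leaving out a library leaves 1 sum per group, so values but no test were possible. Depth limits Spry1 and Spry4 most, with 3 and 39 UMIs in 3m astroglia-like cells.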

Other observations

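In thinned postnatal astroglia-like cells, Etv4 was seen more often beside a Fgfr3 molecule. The shares with and without Fgfr3 were 18.2% and 8.37% in postnatal replicate 1 and 19.7% and 7.26% in postnatal replicate 2. At 3m they were 2.73% and 6.67% in replicate 1 and 5.38% and 4.62% in replicate 2. For Etv5 the shares with and without Fgfr3 were 5.68% and 7.95% in postnatal replicate 1 and 26.3% and 6.58% in postnatal replicate 2, and 8.18% and 6.67% and 10% and 4.62% in 3m replicates 1 and 2. These shares are a description over cells of single libraries, with no test.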
